A study of Mus musculus with 2 samples.

Results

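The strongest CTCF peaks of newborn mouse heart that were left out of both reproducible peak lists were examined. They were chosen by their pooled signal: in the relaxed peak list called on both libraries together, rows on chromosomes 1 to 19 with a summit within 100 bp of a summit of the optimal or conservative list were set aside, and the 10000 strongest of the others were kept. That list holds 293919 rows on these chromosomes, of which 247200 lay outside both lists, and the 10000 rows kept are called unlisted peaks here. The 46719 rows that were set aside are called listed rows. Chromatin immunoprecipitation with an antibody to CTCF, followed by sequencing (ChIP-seq), was done on whole heart of the strain B6NCrl at postnatal day 0. There is 1 group with 2 libraries. Both carry 1 tissue sample and 1 donor identifier in the labels, sex was not collected, and the spread between them may be technical. There is no second condition, so values are described and no test was made over peaks, which are not replicates.

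CTCF is a zinc finger protein that binds a long DNA motif, and most of its sites in mammalian cells carry a recognisable core. It halts cohesin as cohesin extrudes chromatin loops, and so marks many loop anchors and boundaries between domains. IDR, the irreproducible discovery rate, ranks the peaks of a pair of libraries and keeps those whose ranks agree, so a peak can be strong in the pooled data and still be left out. Whether regions were also removed from the lists by a filter is not given in the sources used here. Whole heart is a mixture of cell types, and a peak bound in few cells cannot be told apart from one bound weakly in many.

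The windows that carry the main results are printed next, each with the summit base and 50 bases of mm10 to either side on the plus strand, read from the RefSeq copy of GRCm38, with the best match to the 14-base CTCF core consensus in capitals. A match on the minus strand appears as its reverse complement. The first 3 are the strongest unlisted peaks, at chr19:61266585-61266685, chr1:195241530-195241630 and chr19:61199553-61199653, named by the nearest gene record.
CR555305.2: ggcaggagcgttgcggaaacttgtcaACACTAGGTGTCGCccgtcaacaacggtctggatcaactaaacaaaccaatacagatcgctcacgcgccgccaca
Gm27940: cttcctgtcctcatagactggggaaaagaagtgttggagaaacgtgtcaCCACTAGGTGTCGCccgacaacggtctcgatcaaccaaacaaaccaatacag
Gm6020: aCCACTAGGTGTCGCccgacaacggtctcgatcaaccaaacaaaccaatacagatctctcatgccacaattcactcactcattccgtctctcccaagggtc
The next pair hold a core with 0 mismatches on the minus strand beside a listed peak, at chr12:101029337-101029437 in the promoter of Ccdc88c and at chr11:45926944-45927044 near Lsm11.
Ccdc88c: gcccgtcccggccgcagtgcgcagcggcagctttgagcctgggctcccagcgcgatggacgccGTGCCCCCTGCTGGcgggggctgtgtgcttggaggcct
Lsm11: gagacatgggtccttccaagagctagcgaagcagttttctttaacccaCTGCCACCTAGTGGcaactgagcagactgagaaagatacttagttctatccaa
The third pair lie in repeat-masked sequence and hold a core with 1 mismatch on the minus strand, at chr9:63816702-63816802 and chr17:27592389-27592489.
Gm2553: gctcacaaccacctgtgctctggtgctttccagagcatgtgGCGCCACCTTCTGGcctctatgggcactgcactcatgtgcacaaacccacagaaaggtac
AI413582: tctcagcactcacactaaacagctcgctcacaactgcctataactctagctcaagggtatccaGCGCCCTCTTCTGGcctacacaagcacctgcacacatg
The last pair are CpG-rich promoters of protein-coding genes, at chr15:11907406-11907506 and chr17:28691917-28692017, whose best match has 3 mismatches and is not counted as a core.
Npr3: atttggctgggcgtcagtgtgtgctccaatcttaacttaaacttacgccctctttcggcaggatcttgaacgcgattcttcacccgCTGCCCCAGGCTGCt
Mapk14: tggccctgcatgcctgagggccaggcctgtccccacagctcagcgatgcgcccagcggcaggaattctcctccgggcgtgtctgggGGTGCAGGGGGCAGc

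The signal value, an enrichment the authors deposited for each peak, ran between 10.9 and 140.1 in the unlisted peaks, with a median of 12.3, against 61.4 for the median of the optimal list. These values chose the peaks and are given as a description. The 3 peaks just inside the threshold, whose nearest protein-coding genes are Bfsp2, Fam107a and Agmat, each had a signal of 10.885, and the 3 rows just outside, near Dynlrb1, Svil and Fam198b, had 10.884, 10.883 and 10.883. Of the unlisted peaks, 439 reached a signal of 18, 34 reached 25, and 5 were above the median of the optimal list. In the other direction, 544 listed rows were weaker than the weakest unlisted peak. Every unlisted peak was 224 bp wide, and none lay closer than 203 bp to a listed summit.

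**Figure D1:**
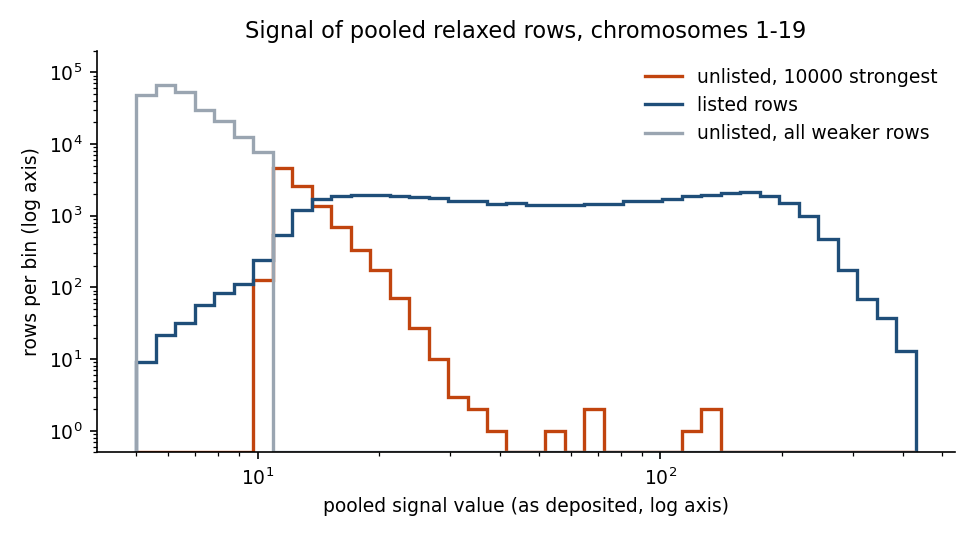
Number of rows of the pooled relaxed list per bin of signal, on log axes, for the 10000 unlisted peaks, the listed rows and all weaker unlisted rows. The unlisted peaks crowd at their lower edge near 10.9, with a tail of single rows up to 140.1, while the listed rows spread over the whole range above it.

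The 3 strongest unlisted peaks stood apart from the rest, and their windows share sequence. The peak near CR555305.2, a processed pseudogene 8.85 kb away, had a pooled signal of 140.1, with 79.6 in replicate 1 and 60.8 in replicate 2. The peak 573 bp upstream of Gm27940, annotated as a miscellaneous RNA, had 132.9 in the pooled list, 66.1 in replicate 1 and 64.5 in replicate 2. The peak near Gm6020, a gene 15.71 kb away, had 114.1 in the pooled list, 70.4 in replicate 1 and 45.7 in replicate 2. All 3 were strong in both libraries, and why they are in neither list was not tested. Their nearest protein-coding genes were Gm21060 at 30.43 kb, the complement receptor gene Cr2 at 64.86 kb and Gm6020. The replicate signals averaged 70.2 ± 13.3, 65.3 ± 1.07 and 58.0 ± 17.4 (SD, n = 2).

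In the printed windows extended by 100 bp to either side, the longest run of bases shared on the same strand was 59 between the Gm6020 and Gm27940 windows, 33 between those of CR555305.2 and Gm27940, and 19 between those of CR555305.2 and Gm6020. On the opposite strand no pair shared more than 8. The 19-base run aaacaaaccaatacagatc is common to all 3 and occurs 4 times on the assembled chromosomes. A pooled row lay within 100 bp at 3 of these places, the 3 peaks themselves, and none at the fourth, on chromosome 11. The 32 bases at each of the 3 summits occur once on these chromosomes, and unplaced sequence was not searched. The 3 peaks lie 64.93, 130.39 and 131.96 kb from an assembly gap of at least 1 kb or a chromosome end. Listed summits lay nearby, 0.81 kb from the CR555305.2 peak, 8.76 kb from the Gm27940 peak and 2.61 kb from the Gm6020 peak. Across the unlisted peaks, 103 (1.03%) were within 100 kb of a gap or a chromosome end, against 430 (0.991%) of the optimal list.

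Of the next 5 peaks by signal, 4 lay within 300 bp of a stronger listed peak. The Ccdc88c peak, 331 bp upstream of a gene for a Dishevelled-binding protein of Wnt signalling, had a signal of 67.9 and lay 278 bp from a listed row of 93.4. The peak near Atxn7l1os2, 14.8 kb from the protein-coding gene Efcab10, had 66.0 and lay 263 bp from a listed row of 89.1. The peak near Nat1, an arylamine N-acetyltransferase gene 49.58 kb away, had 56.5 and lay 275 bp from a listed row of 92.6. At these 3 places the libraries placed their summits differently. Replicate 2 had a summit 21, 1 and 6 bp from the unlisted one, with signals of 38.0, 29.0 and 26.4, whereas the nearest summit of replicate 1 was 260, 270 and 277 bp away, with signals of 52.5, 42.8 and 44.3.

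The Lsm11 peak, near a gene of the U7 particle that processes histone mRNA, had 34.6 in the pooled list, 8.69 in replicate 1 and 24.8 in replicate 2. It lay 261 bp from a listed row with a signal of 140.0. In all, 21 unlisted peaks were within 300 bp of a listed row, whose signals ran between 12.7 and 204.8 with a median of 78.0. Of these 21 peaks, 13 held a core of their own.

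The peaks that complete the 15 strongest had signals between 28.2 and 37.9 and were higher in 1 library. The peak near the pseudogene Gm11668 had 37.9 in the pooled list, 22.2 in replicate 1 and 15.2 in replicate 2, and its nearest protein-coding gene was Axin2, an inhibitor of Wnt signalling, 91.52 kb away. The Npr3 peak, 169 bp upstream of the gene for the natriuretic peptide clearance receptor, had 33.5 in the pooled list, 25.9 in replicate 1 and 7.2 in replicate 2. An intronic peak 40.65 kb into Tgfbr2, a receptor for TGF-beta, had 28.2 in the pooled list, 19.7 in replicate 1 and 6.63 in replicate 2. The peaks nearest Lox, which crosslinks collagen and elastin, Svil, an actin-binding protein, Ankrd42 and Paqr9 likewise had 19.6 to 24.2 in replicate 1 and 6.31 to 7.14 in replicate 2. The peak 58.76 kb from Smad3, a signal transducer of TGF-beta, went the other way, with 7.75 in replicate 1 and 21.0 in replicate 2.

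Most unlisted peaks had a summit in both libraries. A summit of the replicate 1 list was within 100 bp of 8676 unlisted peaks (86.8%), and one of the replicate 2 list within 100 bp of 8157 (81.6%). After the unlisted summits were moved by 1 Mb these shares were 3.03% and 2.72%. Both lists held 6864 unlisted peaks, 68.6% (exact binomial 95% interval 67.7 to 69.5%, which covers counting error only), against a background of 24.3% of all pooled rows. The share was 49.3% in the 10000 unlisted rows next in signal and 97.04% in the optimal list. Replicate 1 alone held 1812 unlisted peaks, replicate 2 alone 1293, and 31 were in neither list. The pooled list was called on these 2 libraries together and its strongest unlisted rows were kept, so a replicate summit nearby is largely built in. The shares after the move give the level met at unrelated places and are no test of the peaks. Since the IDR lists that define the unlisted peaks were also made from these same libraries, presence in both is not independent of the choice, and neither is the ratio between the libraries.

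Where both libraries had a summit, the replicate signals of 4632 of 6864 unlisted peaks (67.5%) differed by over 0.5 on the log2 scale, and those of 1846 (26.9%) by over 1, while 2232 lay within 0.5. IDR keeps rows whose ranks agree between these libraries, so at a given signal the rows it leaves out differ more between them by the choice itself. The values by class of signal are a description for that reason. At a pooled signal of 14 to 18, the replicate signals of 1266 of 1417 unlisted peaks (89.3%) differed by over 0.5 on the log2 scale, against 1553 of 3754 listed rows (41.4%). At 18 to 25 it was 359 of 360 unlisted peaks (99.7%) against 2715 of 5446 listed rows (49.9%). Nearer the threshold, where most unlisted peaks lie, it was 53.9% of unlisted peaks against 27.8% of listed rows at 10.9 to 12, and 64.2% against 31.1% at 12 to 14. The direction was mixed: over all signals the median log2 ratio of replicate 2 to replicate 1 was -0.03 in unlisted peaks, with quartiles of -0.75 and 0.67, and replicate 1 was higher in 3493 of 6864.

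**Figure D2:**
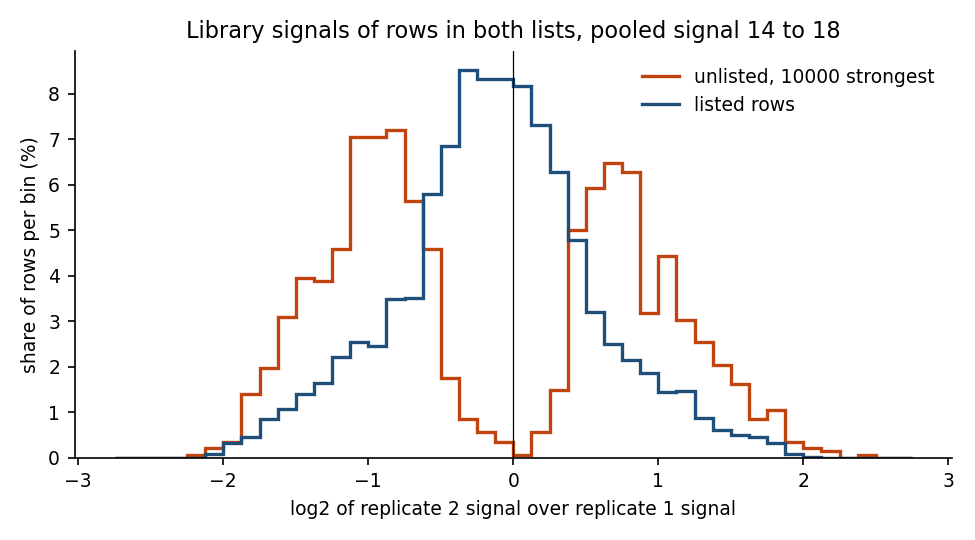
Distribution of the log2 ratio of replicate 2 to replicate 1 signal for peaks found in both libraries at a pooled signal of 14 to 18, for unlisted peaks and listed rows. The unlisted peaks form 2 humps on either side of an almost empty centre, and the listed rows form 1 hump near 0, a contrast that the choice of rows outside the IDR lists brings with it.

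Of the 44533 strongest rows of each replicate, as many as the optimal list holds on all chromosomes, replicate 1 had one within 100 bp of 2056 unlisted peaks (20.6%) and replicate 2 of 1993 (19.9%). Among the strongest of both replicates were 8 unlisted peaks, and 5959 (59.6%) were among those of neither. Rows strong in both are those the IDR lists tend to keep, so a low count follows from the choice of rows. The 8 were the 3 peaks with shared sequence, those near Gm11668 and Lsm11, and those nearest Brox, Gm47772 and Impact, and they are named after their values were seen. The Impact peak, for example, had 21.2 in the pooled list, 9.28 in replicate 1 and 11.2 in replicate 2.

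A CTCF core was searched as the 14-base consensus with at most 2 mismatches, on both strands, within 50 bp of each summit. It was found in 3650 unlisted peaks, 36.5% (95% interval 35.6 to 37.5%), against 17.7% of all pooled rows. In flanking windows of equal length, centred 1000 bp to the left and to the right, 3.06% and 2.53% held one. The share was 20.2% in the next 10000 unlisted rows, 43.2% in the weakest 10% of the optimal list and 73.4% in the whole optimal list. An exact core was found in 119 unlisted peaks (1.19%) against 11.7% of the optimal list. The same choice of rows made in each replicate list alone gave a core in 23.5 ± 7.15% (SD, n = 2), with 28.5% in replicate 1 and 18.4% in replicate 2. The pooled share was higher than in either library alone.

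At equal signal, unlisted peaks and listed rows differed little in this share. Classes of signal were set for this comparison after the data were seen. The core was found in 29.9% of unlisted peaks against 31.9% of listed rows at a signal of 10.9 to 12, and in 36.1% of unlisted peaks against 40.1% of listed rows at 12 to 14. At 14 to 18 it was 47.3% of unlisted peaks against 49.4% of listed rows, and at 18 to 25 it was 58.3% of both. The intervals of the pairs overlapped in the first, the third and the fourth class, and nearly met at 12 to 14, where they were 34.5 to 37.7% for unlisted peaks and 37.7 to 42.5% for listed rows. Above 25 the 34 unlisted peaks held a core in 58.8% (40.7 to 75.4%) against 79.6% of 34184 listed rows, which reach much higher signals.

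**Figure D3:**
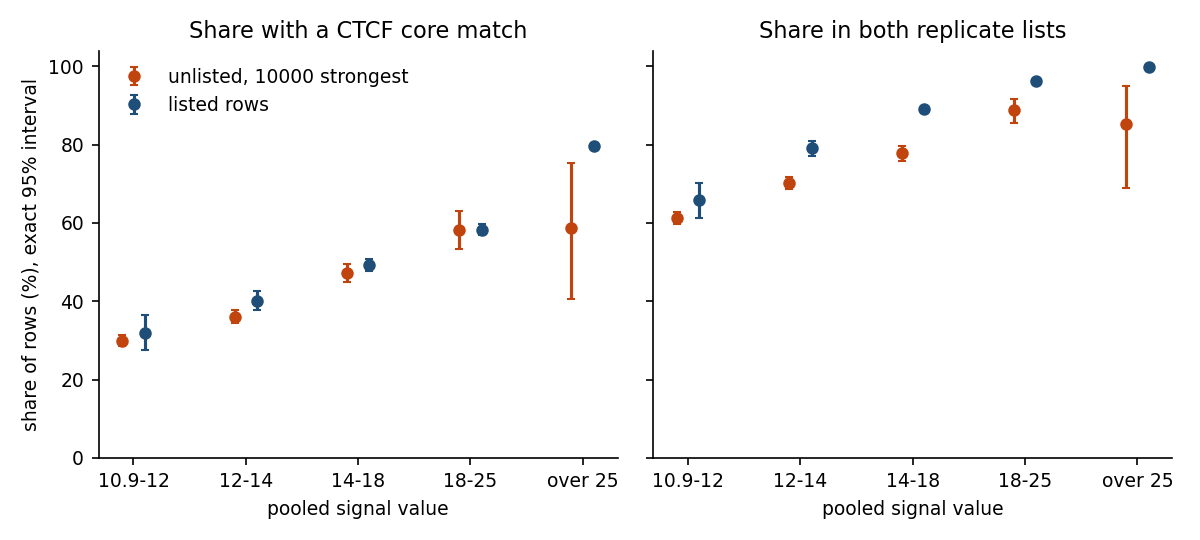
Share of peaks with a CTCF core match (left) and share found in both replicate lists (right) by class of pooled signal, for unlisted peaks and listed rows, with exact 95% intervals. Below a signal of 25 the shares with a core nearly coincide, 58.3% of both at 18 to 25, while fewer unlisted peaks than listed rows are in both replicate lists in each class.

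Presence in both libraries, which the choice of rows bears on, differed more within the same classes, and below a signal of 25 the intervals overlapped in the lowest class alone. It was 61.3% of unlisted peaks against 65.9% of listed rows at 10.9 to 12, 70.2% against 79.1% at 12 to 14, 77.9% against 89.0% at 14 to 18, and 88.9% against 96.2% at 18 to 25. Among unlisted peaks found in both libraries, the core was present in 44.0% (42.0 to 45.97%) of those with replicate 1 higher by over 0.5 on the log2 scale. It was present in 35.8% (33.8 to 37.8%) of those with replicate 2 higher by as much and in 34.4% (32.4 to 36.4%) of those in between. Of the peaks in 1 list alone, 37.8% held a core when that list was replicate 1 and 26.0% when it was replicate 2. The median pooled signal of the first 3 classes was 13.3, 12.7 and 11.9, and the part of signal or library scale in the core share was not tested.

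The core lay less tightly at the summit in unlisted peaks. Its centre was a median of 11.5 bp from the summit, and within 20 bp in 2611 of 3650 (71.5%), against 5.5 bp and 91.7% in the optimal list. In the weakest 10% of the optimal list these were 11.5 bp and 70.9%. The best match was on the plus strand in 50.7% of unlisted peaks with a core. The Gm6020 window printed above shows a distant case, with its core at the very start of the printed bases.

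**Figure D4:**
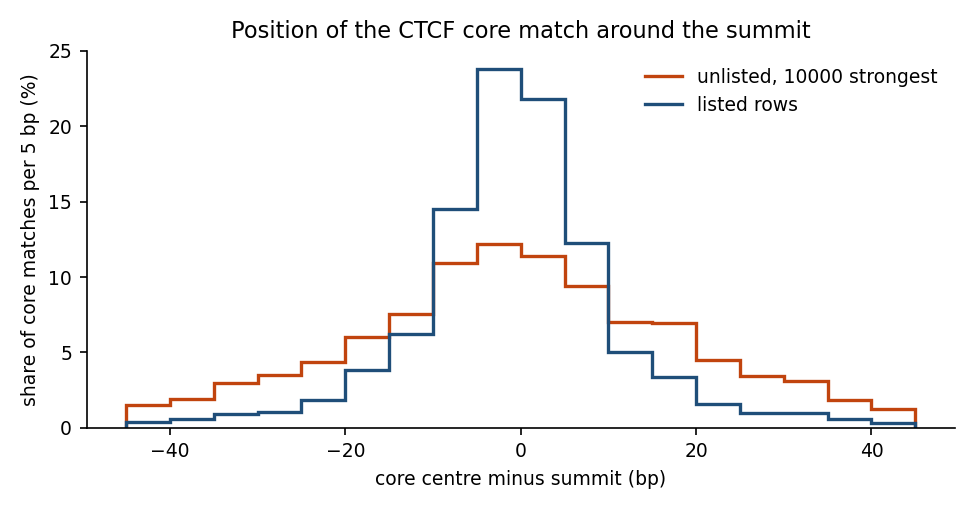
Position of the core centre relative to the summit in bp, for unlisted peaks with a core and listed rows with a core, as a share of core matches per 5 bp. Both distributions centre on the summit, and that of the unlisted peaks is lower and wider, with 71.5% of its cores within 20 bp.

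A larger share of unlisted peaks than of the whole optimal list, whose median signal is higher, lay at promoters, but this did not hold in each class of signal. A summit within 1000 bp of the 5' end of a gene of any type was called a promoter, and 1822 unlisted peaks had one, 18.2% (17.5 to 18.99%), against 8.92% of all pooled rows, 14.2% of the optimal list and 20.6% of its weakest 10%. The same choice in each replicate list alone gave 16.6 ± 0.410% (SD, n = 2). By class of signal, promoters held 17.5% (16.4 to 18.7%) of unlisted peaks against 25.1% (21.2 to 29.4%) of listed rows at 10.9 to 12. The shares were 18.7% against 19.9% at 12 to 14, 18.4% against 18.3% at 14 to 18, and 20.5% against 16.2% at 18 to 25. Above 25 they were 23.5% of 34 unlisted peaks against 13.1% of listed rows. The intervals of the pairs overlapped in each class above 12. Of the unlisted peaks, 46.6% lay in introns against 43.8% of the optimal list, and 27.7% were intergenic against 34.7%. Coding exons held 2.61% of unlisted peaks against 2.40% of the optimal list, and other exons 4.84% against 4.81%.

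**Figure D5:**
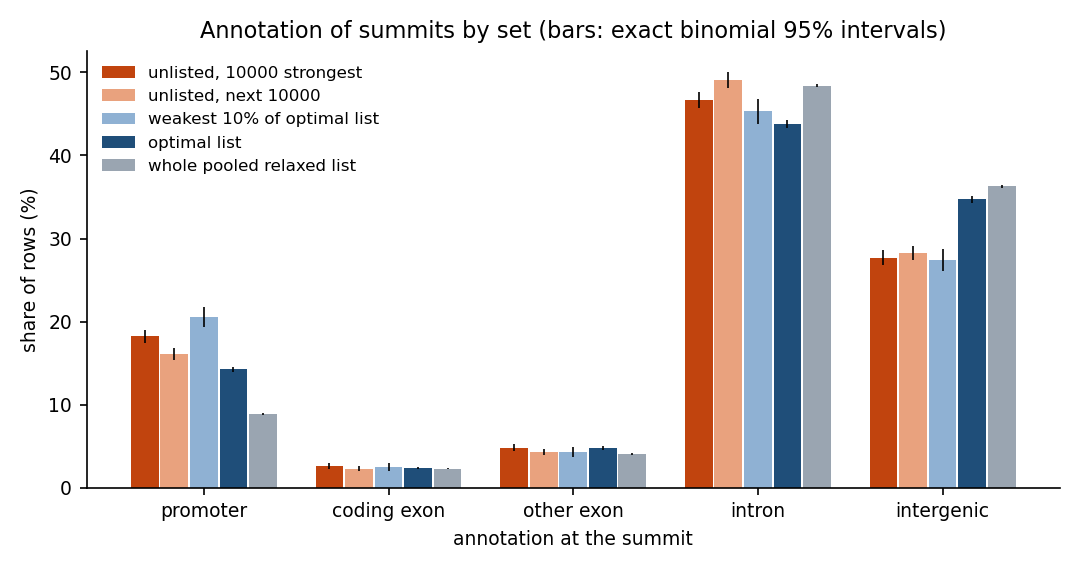
Share of summits in each class of annotation, with exact 95% intervals, for the unlisted peaks, the next 10000 unlisted rows, the weakest 10% of the optimal list, the whole optimal list and the whole pooled relaxed list. The unlisted peaks have 18.2% at promoters and 27.7% between genes, close to the weakest 10% of the optimal list.

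Unlisted promoter peaks had fewer cores than the other unlisted peaks, at a share near that of all pooled promoter rows. The core was found in 17.9% (16.2 to 19.8%) of unlisted promoter peaks and in 40.6% (39.6 to 41.7%) of the other unlisted peaks, against 54.8% of promoter peaks and 76.5% of other peaks in the optimal list. Among all pooled rows it was in 19.4% at promoters and 17.5% elsewhere. At promoters it was in 12.8% of the next 10000 unlisted rows and 25.1% of the weakest 10% of the optimal list. Listed promoter rows with signals of 10.9 to 25 had it in 30.6%. The median signal of all listed rows in that range was higher, 17.6 against 12.3 for unlisted peaks. At unlisted peaks in introns it was 39.6%, and at intergenic ones 44.2%. Unlisted promoter peaks had a median GC content of 59.4% within 50 bp of the summit, against 51.5% for all unlisted peaks. Of these promoter peaks, 971 had at least 5 CpG, and 13.7% of those held a core, against 22.8% of the 851 with fewer. The nearest gene was protein-coding in 1392 (76.4%), a class that makes up 40.6% of all annotated genes. The summit was upstream of the 5' end in 854 (46.9%) and within 200 bp of it in 713.

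The unlisted promoter peaks without a core were searched for short motifs of other factors, on both strands of the same windows. The GC box GGGCGG, bound by SP and KLF factors, was present in 305 of 1495 (20.4%, 18.4 to 22.5%), against 22.8% of optimal promoter peaks without a core and 13.0% of such pooled rows. The ETS motif CCGGAAG was present in 3.81% (2.90 to 4.91%) against 4.40% of the optimal and 2.38% of the pooled promoter rows, and the NRF1 motif GCGCATGC in 1.14% (0.664 to 1.81%) against 1.43% and 0.630%. The E-box CACGTG was present in 3.14% (2.32 to 4.16%) against 2.40% of optimal and 2.17% of pooled promoter rows. The YY1 motif AAGATGGC was present in 1.54% (0.978 to 2.30%) against 0.930% of optimal and 0.833% of pooled promoter rows. The NFY box CCAAT was present in 11.2% (9.62 to 12.9%) against 8.58% and 11.3%, the CREB motif TGACGTCA in 0.602% (0.276 to 1.14%) against 0.572% and 0.327%, and its part TGACGT, which lies within the whole motif, in 2.74% (1.98 to 3.70%) against 2.11% and 1.89%. The AP-1 motif TGANTCA was present in 1.34% (0.819 to 2.06%) against 1.57% and 2.07%, and the GATA motif AGATAA in 1.87% (1.25 to 2.696%) against 1.54% and 3.21%. The share in pooled promoter rows lay below the interval of the unlisted promoter peaks for the GC box, ETS, NRF1, E-box and YY1 motifs and for TGACGT. It lay above that interval for the AP-1 and GATA motifs, and within it for the NFY, whole CREB, MEF2 and TEAD motifs.

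Over all unlisted peaks, the GATA, MEF2, TEAD and AP-1 motifs were not more frequent than beside the peaks, beyond counting error, while several other motifs were. The GATA motif AGATAA was in 3.22% of unlisted peaks, against 5.09% and 5.77% of the left and right flanking windows. The MEF2 motif TATTTATA was in 0.540% against 0.810% and 0.850%, and the TEAD motif GGAATG in 5.75% against 5.54% and 5.31%. The AP-1 motif TGANTCA was in 2.7% against 2.73% and 2.60%. The GC box was in 6.40% against 2.81% and 2.64%, the ETS motif in 1.17% against 0.480% and 0.540%, and the E-box in 2.41% against 1.57% and 1.49%. The YY1 motif was in 1.26% against 0.700% and 0.610%. The NRF1 and whole CREB motifs and TGACGT were also more frequent than in either flank, while the NFY box was in 10.6% against 13.2% and 12.7%. Median GC content was 51.5% at the summits and 46.5% in both the left and the right flanking windows, and its part in these shares was not tested. A match in a window is a description and no site.

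Among the 15 strongest unlisted promoter peaks, after those of Gm27940, Ccdc88c and Npr3, were genes of several general functions. The Mapk14 peak, 638 bp downstream of the 5' end of the p38 alpha kinase gene, had 26.1 in the pooled list, 18.7 in replicate 1 and 5.52 in replicate 2. The Psmd2 peak, 35 bp upstream of a proteasome subunit gene, had 26.0 in the pooled list, 18.7 in replicate 1 and 6.03 in replicate 2. Both were higher in replicate 1. The Jup peak, 702 bp downstream of the 5' end of the plakoglobin gene, whose protein joins cardiac muscle cells at desmosomes, had 24.03 in the pooled list, 7.12 in replicate 1 and 15.5 in replicate 2. The Stom peak, 99 bp upstream of the stomatin gene, had 23.3 in the pooled list, 7.87 in replicate 1 and 15.4 in replicate 2. These were higher in replicate 2. The Nr4a3 peak, 321 bp upstream of a gene for an orphan nuclear receptor, had 23.4 in the pooled list and 20.6 in replicate 1, with no replicate 2 summit within 100 bp. The others were at Tnk2os, AC126438.4, Hdlbp, Apobec2, Gm10722, Slc35e2 and Abcd4, with signals between 23.8 and 27.5. The Gm10722 peak lies 85 bp from an assembly gap or chromosome end, in sequence that is 95.05% masked.

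A protein-coding gene had an unlisted peak within 1 kb of its 5' end in 1601 of 20807 cases, 7.69%, and within 10 kb in 3960, 19%. A listed peak lay within 1 kb of 4991 of these genes (23.99%). Of the 1601 genes, 1214 (75.8%) had no listed summit within 1 kb. This is close to the share of all protein-coding genes without one, given that 23.99% of them had one, and so is not particular to these genes. Lists of genes were then set against these shares as counts, with no test of a list. The lists cover the main cell types and functions of heart and some tissues that heart lacks.

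Of 30 sarcomere genes, 15 had an unlisted peak within 10 kb (50%, against 19% of all protein-coding genes) and 4 within 1 kb (13.3%, against 7.69%). A listed summit lay within 10 kb of 21 of the 30, and the share of all protein-coding genes with one at this distance was not counted. Across the 14 lists this share ran between 10 of 24 blood genes and 27 of 32 immediate early and stress genes. The Nebl peak, 313 bp upstream of the gene for the Z-disc protein nebulette, had 15.5 in the pooled list, 6.13 in replicate 1 and 8.23 in replicate 2, and held a core with 1 mismatch. No listed summit lay within 86653 bp of that 5' end. The Myom2 peak, 53 bp upstream of the gene for the M-band protein myomesin 2, had 13.0 in the pooled list, 4.58 in replicate 1 and 8.71 in replicate 2. Peaks within 1 kb of Tnnt2 and Xirp2, named after their values were seen, were each in 1 replicate list alone.

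The list of fatty acid and mitochondrial genes had 5 of 32 with an unlisted peak within 1 kb (15.6%) and 10 within 10 kb (31.2%). These are counts of genes: Hadha and Hadhb, named after their values were seen, share the same peak, with a pooled signal of 12.1. The Esrrg peak, 300 bp upstream of the gene for a nuclear receptor that drives oxidative metabolism, had 21.1 in the pooled list, 6.59 in replicate 1 and 11.7 in replicate 2. The Slc27a1 peak, near the gene for a fatty acid transporter, had 12.3 in the pooled list and 8.95 in replicate 2 alone. Of 34 cardiac transcription factors, 2 had one within 1 kb and 5 within 10 kb (14.7%). The Gata6 peak, 283 bp downstream of the 5' end of the gene for a GATA factor of heart development, had 22.8 in the pooled list, 17.3 in replicate 1 and 3.91 in replicate 2. The Irx3 peak, 28 bp downstream of the 5' end, had 14.9 in the pooled list, 8.54 in replicate 1 and 4.47 in replicate 2. The first was far more uneven between libraries than the second.

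Of 32 ion channel and calcium handling genes, 2 had an unlisted peak within 1 kb, among them Kcnh2 (a potassium channel of repolarisation), and 4 within 10 kb. The Kcnh2 peak was in 1 replicate list alone. Immediate early and stress genes had 3 of 32 within 1 kb and 14 within 10 kb (43.8%), among them Gadd45g with 15.9 in the pooled list and Btg2 with 15.2. The Gadd45g peak was in the replicate 2 list alone, at 9.95. Cell cycle genes had 4 of 31 within 1 kb, with E2f1 at 16.7 and Ccnd2 at 12.9 in the pooled list, and 6 within 10 kb. The E2f1 peak had 12.1 in replicate 2 and 3.06 in replicate 1, near the weakest value of the replicate 1 list, 2.94. Endothelial genes had 2 of 28 within 1 kb, Aplnr, the apelin receptor, and Notch1, and 8 within 10 kb. The Notch1 peak was in the replicate 1 list alone. Smooth muscle genes had 2 of 15 within 1 kb, Smtn and Synpo2, and fibroblast and matrix genes 1 of 26, Vim. Both counts within 10 kb were 5.

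The list of CTCF, cohesin, loading factors and related factors had 3 of 17 within 1 kb and 5 within 10 kb. The 3 were Ldb1, a looping cofactor, Maz and Top2b, and Ctcfl and Yy1 completed the 5. Top2b, Ctcfl and Yy1 are named after their values were seen. None of the 5 is Ctcf itself or a gene of cohesin or its loaders. The Maz peak was in the replicate 1 list alone. The Ldb1 peak had 9.57 in replicate 2 and 3.05 in replicate 1, near the weakest value of the replicate 1 list, 2.94. Housekeeping genes had 2 of 28 within 1 kb, Hnrnpa1 and Rpl4, and 10 within 10 kb (35.7%). Neural genes had 1 of 25 within 1 kb, Olig2, with a peak in the replicate 1 list alone, and 2 within 10 kb. No hepatic gene of 21 and no blood gene of 24 had one within 1 kb, while 3 hepatic genes and 1 blood gene had one within 10 kb. Counts of 0 in lists of this size allow shares of up to 14.3% and 12.5%, above the 7.69% of all protein-coding genes.

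Genes were ranked by the count of unlisted peaks in the body, which favours long genes. Gm20388, a record of 4435 kb on chromosome 8, held 66 unlisted peaks and 244 listed rows. Fgfr2, whose record spans 2961 kb, held 26 and 98. Nav2 held 12 and 33, Camta1 11 and 37, Arhgap26 10 and 17, and Gm37240 10 and 28. Per 100 kb, Gm20388 held 1.49 unlisted peaks and 5.50 listed rows, Fgfr2 0.878 and 3.31, and the shorter Kank1 4.05 of each. Dst and Msi2 held 8 unlisted peaks each, 2.00 and 2.11 per 100 kb. In all, 4243 protein-coding genes (20.4%) held at least 1.

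By chromosome, unlisted peaks tended to be denser where listed rows were denser, and the density of other pooled rows was not compared. There were 4.06 unlisted peaks per Mb over chromosomes 1 to 19. The density was lowest on chromosome 3, at 3.04, and highest on chromosome 11, at 5.99. These were also the lowest and highest for listed rows, at 15 and 28.6 per Mb. Per 100 listed rows the number ran between 19.1 on chromosome 16 and 23.5 on chromosome 15. The windows of 1 Mb with most unlisted peaks were chr11:98000001-99000000 with 25, chr15:102000001-103000000 with 24 and chr10:80000001-81000000 with 23, and 3 windows tied at 22, among them chr1:88000001-89000000 and chr5:124000001-125000000. These windows held 72, 55, 86, 36 and 52 listed rows and 35, 38, 53, 17 and 21 protein-coding 5' ends, in the same order, against 18.97 listed rows and 8.45 such ends per Mb overall.

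A listed summit lay within 1 kb of 1055 unlisted peaks (10.6%, 9.95 to 11.2%) and within 50 kb of 9025, with a median distance of 8779 bp. The next 10000 unlisted rows were much alike, with 1056 (10.56%) within 1 kb and 8887 within 50 kb, so this nearness is not particular to the unlisted peaks. In 996 of the 1055 cases the listed neighbour was the stronger, with a median signal of 48.3. Promoter position and core content both varied with this distance. Promoters made up 41.7% of unlisted peaks at 100 to 500 bp from a listed summit and 11.2% beyond 50 kb, while cores were found in 23.3% at 100 to 500 bp and 43.9% beyond 50 kb. In the 182 pairs within 1 kb in which the unlisted peak and its listed neighbour both held a core, the cores were on the same strand in 83 (45.6%).

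Repeats held many of the cores. At least 50% of the window was repeat-masked in 1926 unlisted peaks, 19.3% (18.5 to 20.05%), against 15.1% of all pooled rows and 10.9% of the optimal list. Of the masked unlisted peaks 65.4% held a core (63.2 to 67.5%), against 29.6% of the unmasked ones (28.6 to 30.6%), so that 1259 of the 3650 cores lay in masked peaks. The share of masked peaks with a core was 83.8% in the optimal list and 23.3% in all pooled rows. Among listed rows with signals of 10.9 to 25, a core was in 76.9% of masked and 45.4% of unmasked rows. Of the 6194 cores in those listed rows, 1841 lay in masked ones. In the next 10000 unlisted rows the shares were 43.1% of masked and 15.6% of unmasked rows. The higher core share in masked sequence is therefore not particular to the unlisted peaks. By class of signal, masked peaks made up 18.1% of unlisted peaks against 13.4% of listed rows at 10.9 to 12, and 18.9% of unlisted peaks against 19.02% of listed rows at 12 to 14. They made up 22.2% of unlisted peaks at both 14 to 18 and 18 to 25, against 20.1% and 20.7% of listed rows, and 14.7% of the 34 unlisted peaks above 25 against 8.59% of listed rows. The intervals of the pairs overlapped in each class, though at 10.9 to 12 they barely touched. The windows of Gm2553, at a signal of 30.9, and AI413582, at 26.9, are the strongest masked peaks with a core, each with 1 mismatch, in sequence that is 75.2% and 79.2% masked.

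Sequence that occurs more than once in the genome was rare. The 32 bases at the summit occurred once for 9678 unlisted peaks and more than once for 322 (3.22%, 2.88 to 3.58%), against 2.61% of all pooled rows. Of these 322, 89.8% were masked and 61.8% held a core. How the authors' alignment placed reads that match several places is not given in the sources used here, and its part in these peaks was not tested.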

How the data were processed

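CTCF ChIP-seq peak lists of 2 heart libraries were analysed on mm10, the build the labels give. Per the text files beside them, the authors called 3 relaxed lists, on each replicate and on both together, each against a control alignment not used here, and derived the optimal and conservative lists by IDR. Neither an aligner nor a peak caller is named: both are not given in the sources used. The deposited signal value ranked the peaks. Signals of the replicates were compared unscaled, and an SD between them holds any difference in scale. The deposited q-value score was not used. Read depth is not given in the lists, so no interval on a signal is given.

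Summits are the deposited start plus the offset. The 14-base core, short motifs and masking were read within 50 bp of each summit from GRCm38, and 5' ends from GENCODE M21, by own scripts (Python 3.11.15, numpy 2.4.6, pandas 2.3.3, scipy 1.17.1, matplotlib 3.10.9), tested on simulated data. Context was called as promoter, coding exon, other exon, intron and intergenic, in that order. Peaks were matched between lists when summits lay within 100 bp. Shares carry exact binomial (Clopper-Pearson) 95% intervals, which cover counting error only. Of 388 genes in 14 lists, 375 were found on chromosomes 1 to 19 of the annotation.

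The peaks and gene lists were chosen with earlier results of these data known. Named genes are those nearest the 15 strongest peaks, those of the 15 strongest promoter peaks, the 10 genes with most peaks in the body, for each list the 2 genes whose peak within 1 kb was strongest, and the 5 windows of 1 Mb with most peaks; 2 of these genes are not reported here. Alternatives were other exclusion distances, numbers of rows, match and promoter distances and mismatch limits, each replicate alone and, chosen after seeing the data, peaks whose 32 summit bases occur once.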

Additional observations from a re-analysis of the deposited data

How the results depend on the processing

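The same choice of rows in the list of 1 library alone, which leaves out the other, gave promoter shares of 16.3 to 16.9% against 18.2% pooled, core shares of 18.4 to 28.5% against 36.5%, masked shares of 14.4 to 17.9% against 19.3%, and shares within 1 kb of a listed summit of 12.7 to 14% against 10.6%. The cause was not tested. The share in both replicate lists could not be recomputed without a library. No paired analysis was possible because there is 1 group. With 20000 rows kept, the promoter share was 17.2%, the core share 28.4% and the share in both lists 59.0%, and with 5000 rows that last share was 75.2%, since more or fewer weak rows enter. An exclusion distance of 500 bp gave a promoter share of 17.4% and a share within 1 kb of a listed summit of 7.41%, and 1000 bp a promoter share of 16.2%. The distance of 1000 bp empties the share within 1 kb and was not applied to it. Promoters counted within 500 bp made up 12.8%, and those of protein-coding genes alone 14.8%. A core with at most 1 mismatch was in 12.5%, and with at most 3 in 62.6%. Both replicate lists held 56.9% when matched within 50 bp and 75.1% within 200 bp. The summit base itself was masked in 22.2%. The other 22 of 43 alternatives moved a share by less than the spread between the libraries or its counting interval. Among these 22 was the core share with 5000 rows kept, 42.9%. It moved by less than the SD of 7.15% between the libraries but lay outside the counting interval of 35.6 to 37.5%. Gene list counts within 10 kb stand beside those within 1 kb. Peak lists carry no read counts, and a signal near the weakest listed value in a library, 2.94 in replicate 1 and 3.16 in replicate 2, limits which peaks can be found in both.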
